A study of Mus musculus with 2 samples.

Results

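The genes described here handle iron in the cell: Scara5, Tfrc, Steap3 and Slc11a2 for uptake, Fth1 and Ftl1 for storage, Slc40a1 for export, and Aco1 and Ireb2 for regulation. These 9 genes were chosen by name, with earlier results of the same arrays known, and Scara5 entered because of its measured difference. They were found on the array through the deposited gene symbol or Entrez gene number, which gave 15 probes for 9 of 31153 gene names. The cell line CT26, from a mouse colon carcinoma, was compared as cells transduced with pLKO.1-shCDK8, a lentiviral vector that expresses a short hairpin RNA against the Mediator kinase CDK8 (knockdown), and as cells transduced with the empty pLKO.1 vector (control). Total RNA of each was measured on Illumina MouseWG-6 v2.0 bead arrays, with 1 array in each group. Each group is therefore 1 culture, the knockdown is the hairpin construct named in the labels, and whether the transduced cells were a pool or a clone is not given in the sources used here. With no replicates, no value has an error between cultures and no difference was tested; "higher" and "lower" refer to these arrays.

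Most cells take up iron bound to transferrin, which the transferrin receptor carries into endosomes, where a reductase and a divalent metal transporter pass the iron to the cytosol. Iron that is not used is stored in ferritin, a shell of heavy and light chains, or leaves the cell through ferroportin. The iron regulatory proteins bind iron-responsive elements in messenger RNAs when iron is scarce, which stabilises the transferrin receptor mRNA and blocks translation of the ferritin mRNAs. Ferritin is thus controlled largely at translation, which an RNA array does not measure. Scara5, a class A scavenger receptor, binds ferritin outside the cell and offers an uptake route that does not need transferrin.

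Of the 15 probes, 12 passed the detection limit in both groups, 1 did so in the control alone and 2 did in neither. The limit, a raw intensity of 93.7 on the knockdown array and 94.5 on the control array, is the upper 1% of the background estimated from dim probes. Detected members numbered 7, and Steap3 and Slc40a1 were not well above background. Values on the log2 scale below are background-corrected and quantile normalised, and a difference is knockdown minus control. Cdk8 itself, the check of the label, had a log2 value of 7.89 in the knockdown and 9.88 in the control at its detected probe. Total raw intensity was 1.46e+07 on the knockdown array and 1.40e+07 on the control array, and 13609 genes were detected on both.

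**Figure D1:**
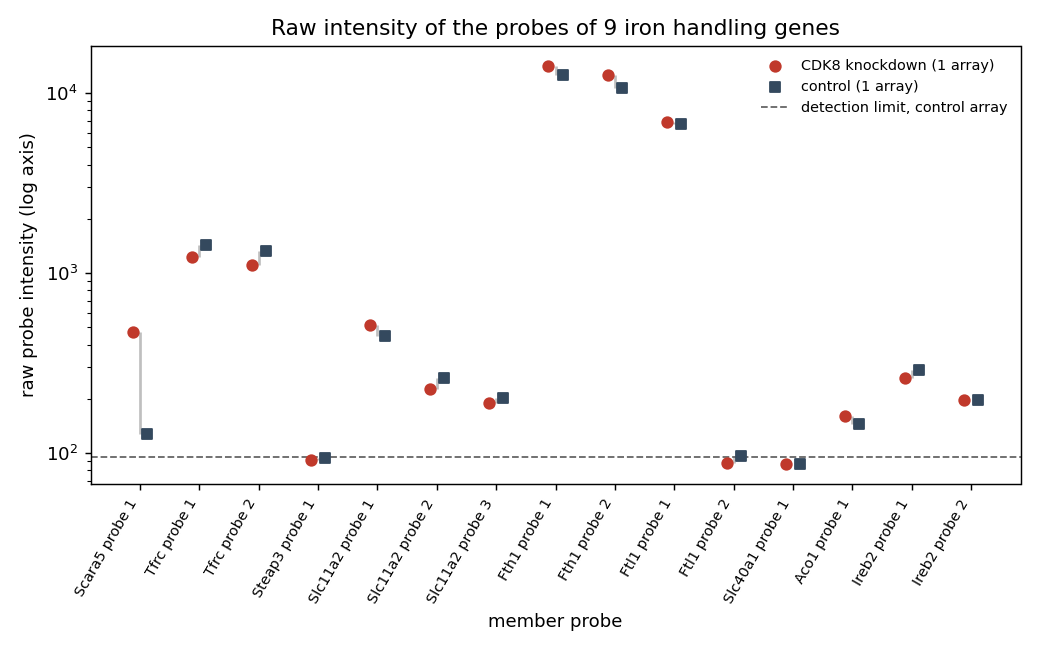
Raw intensity on a log axis of the 15 probes of the 9 genes, with the knockdown array as circles and the control array as squares (1 array each, so no error bars). The single Scara5 probe separates the arrays, the other bright probes lie close together, and the Steap3 and Slc40a1 probes and Ftl1 probe 2 lie at the dashed detection limit or under it.

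Sequences around the annotated starts of the genes were also looked at. RefSeq windows of 300 bases around the annotated starts (250 before to 50 after, build GRCm38.p6) were at hand for 6 of the 9 genes, in 11 windows. The letters TATAA, a core of the TATA box to which the general transcription machinery binds, stood on the gene's strand in 3 of these windows, against 17.5% of all 32851 windows of that length. On either strand they were in 4 of the 11, against 24.9% of all windows. The 3 windows belong to Fth1, Ftl1 and Tfrc, while the other window of Fth1 and that of Tfrc held no TATAA on the gene's strand. With so few windows, nothing is read from these counts. The 30 bases around the runs are shown with TATAA in capitals:
Fth1 (chr19:9982660-9982689, plus strand): gcaggatcccgcTATAAgtgcggcccgctg
Ftl1 (chr7:45459852-45459881, minus strand): gggtcaacatgcTATAAaaggagcgctcct
Tfrc (chr16:32608938-32608967, plus strand): gtggggccgagcTATAAgctttgggtggga
In each of them the run is preceded by GC, for which no share over all windows was taken. The Fth1 run begins 27 bases and the Ftl1 run 18 bases into the annotated transcript, so these are not upstream of the start. The Tfrc run begins 172 bases before 1 of its 2 annotated starts. Whether any of the runs acts as a TATA box was not tested. The windows of Aco1, Ireb2 and Steap3 held no TATAA on either strand, which says only that these letters are not in them.

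Among the uptake genes, Scara5 was higher in the knockdown by far more than any other member. Its probe had a raw intensity of 472 on the knockdown array and 127.4 on the control array, which is 378 and 32.9 above the detection limits. On the log2 scale these were 8.59 and 5.80, a difference of 2.79 or 6.90-fold. The gene has a single probe on the array, so no second probe bears on the value. In RNA of a whole culture, more cells that express a gene and more of its RNA per cell cannot be told apart, here and for all values below. These values led to its choice. They, its ranks and the comparison with genes of like level are therefore a description and lend it no support. Of the 13609 genes it ranked 1 from the highest, and among the 2029 genes whose mean log2 level lay within 0.5 of its own, 0 differed as much in either direction. The central 95% of those genes lay between -0.60 and 0.62. The size depended on how the dim control value was treated: the difference was 1.84 with no background correction and 3.21 with the background peak subtracted and floored, and 3.57-fold and 9.26-fold are the matching ratios. The rank was 4 with that floor and 5 with an offset of 1, and 2 with bright probes only, with the brightest probe of a gene and with probes detected on both arrays only. The authors' processed intensities at this probe were 258.2 in the knockdown and 31.1 in the control.

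Scara5 lies on chromosome 14, and it is the only member there. The 351 detected genes of that chromosome had a median difference of 0.21, and 79.8% of them were above 0, against 48.9% of all detected genes. Scara5 was 5.96-fold above that median, and the next gene on the chromosome, Gm9780, differed by 1.43. Of the 12 nearest detected protein-coding genes, 6 on each side, 8 were above 0. They lay between -0.36 at Pbk, a mitotic kinase and the nearest on one side, and 0.85 at Scara3, another class A scavenger receptor. Elp3, the nearest on the other side, differed by 0.22. The part of the chromosome-wide shift in the Scara5 value was not tested.

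**Figure D2:**
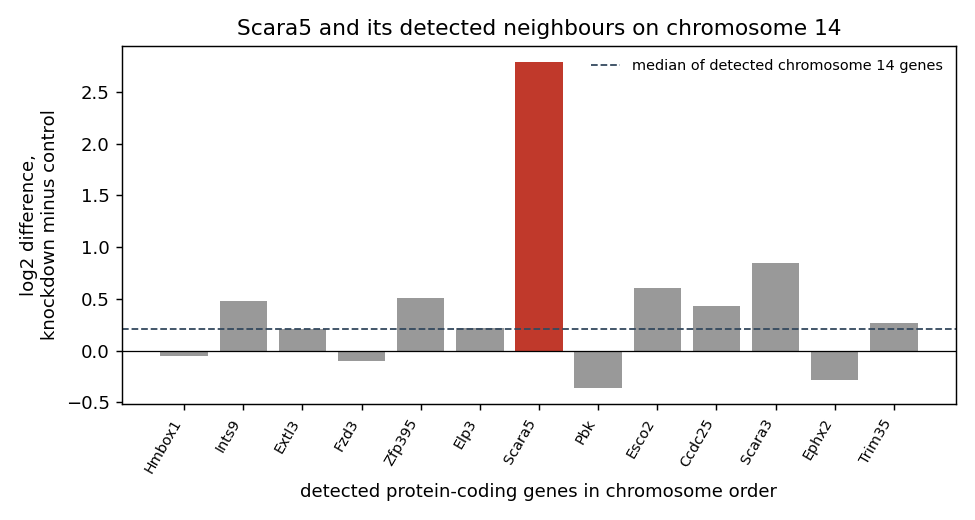
Log2 difference, knockdown minus control, of Scara5 and the 6 detected protein-coding genes on each side of it in chromosome order, from 1 array per group. Scara5 stands at 2.79, its neighbours lie between -0.36 and 0.85, and the dashed line marks the median of 0.21 of the chromosome's 351 detected genes.

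By its pair of values, Scara5 was most like Gsta1, a glutathione transferase with a close paralog whose transcript its probe may read, with log2 values of 8.47 in the knockdown and 5.86 in the control. Cbr2, a carbonyl reductase, came next with 8.14 in the knockdown and 5.98 in the control, and the third was a clone identifier without a gene name. This likeness rests on 2 arrays, as the distance between points in the plane of their log2 values. Because Scara5 is also known as a gene of fibroblasts, the fibroblast markers are given beside it. Of 10 such markers 6 were detected on both arrays, with a median difference of 0.39, and their summed raw intensity over 19 probes was 6849 in the knockdown and 4663 in the control. The brightest probe of Dcn is part of that sum, with 3098 in the knockdown and 1788 in the control, and Dcn differed by 0.58. At least 1.5-fold higher were 2 of the 6, Col1a1 at 1.41 and Col1a2 at 0.84, against 2.08% of all genes. At least 1.5-fold lower were also 2, Col3a1 at -0.60 and Pdgfrb at -1.003, against 2.22% of all genes. Pdgfrb was dim, at raw intensities of 104.3 in the knockdown and 135.4 in the control. The Pdgfra probes had opposite signs, at -0.27 and 0.65. Lum, detected in the knockdown alone, was at least 1.71-fold higher there. Postn, detected in the control alone, was at least 1.06-fold lower in the knockdown. Pi16 and Thy1 were not above background. The part of these markers in the Scara5 value was not tested. Colon epithelial markers were dim in this line: 4 of 9 were detected on both arrays, Epcam, Krt18, Krt19 and Vil1 on neither, and Krt8 only just, in the knockdown. All 4 detected ones were below 0, with a median of -0.54, against 50.8% of all genes below 0. Krt20 differed by -0.94 and Cdx2 by -0.93, both near background in the knockdown. Cdh1 at -0.14 and Lgals4 at -0.03 were dim on both arrays and within the pooled SD of 0.22 between probes of a gene. The Lgals4 probes had opposite signs, at -0.12 and 0.06.

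Tfrc, the transferrin receptor, was lower in the knockdown at both of its probes. Their raw intensities were 1226 and 1110 on the knockdown array, against 1428 and 1320 on the control array. The differences were -0.30 and -0.33, and the gene mean was -0.31, with an SD between the probes of 0.02, or 1.24-fold lower. This exceeds the pooled SD of 0.22 between probes of a gene, which describes probes and not cultures. It did not stand apart from genes of like level, since 127 of 828 such genes, or 15.3%, differed at least as much. Over all 12 alternatives it stayed between -0.34 and -0.30.

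Steap3, an endosomal ferrireductase, gave 91.9 in the knockdown and 93.5 in the control, both under the limit, and no fold is given. Among its relatives, Steap2 was bright, at 1516 in the knockdown and 1426 in the control, with a difference of 0.03. Steap1 differed by -0.48 at its single probe. Steap4 lay just above the limit, with 96.7 in the knockdown and 95.0 in the control.

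Slc11a2, the divalent metal transporter DMT1, had 3 detected probes that disagreed in direction. The brightest gave 511.4 in the knockdown and 445.2 in the control, a difference of 0.13. The others gave 227.1 and 190.8 in the knockdown, against 260.5 and 201.5 in the control, differences of -0.37 and -0.21. The mean of -0.15 thus has an SD between probes of 0.26, larger than itself, and the arrays show no direction for this gene. The transcript is known to occur in forms with different ends. Which form each probe reads was not examined, as no probe sequence was used here.

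The storage genes were bright and nearly level between the arrays. Fth1, the heavy chain with the ferroxidase activity, had raw intensities of 14151 and 12623 on the knockdown array, against 12590 and 10618 on the control array. The raw ratios were 1.12 and 1.19, while the 363 probes over 5000 on the control array had a median ratio of 1.05. After normalisation the differences were 0.06 and 0.17, with a mean of 0.11 or 1.08-fold, and 20 of the 116 genes of like level (17.2%) differed at least as much. Ftl1, the light chain, had 6882 in the knockdown and 6704 in the control at its bright probe, a difference of -0.02. Its second probe was at background in the knockdown (87.8) and just above the limit in the control (96.3), so it was at least 1.10-fold lower. That dim probe drew the gene mean to -0.21, or -0.81 with an offset of 1, so the bright probe is the better account of Ftl1. The heavy and the light chain therefore both lay within the SD between probes.

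Slc40a1, which encodes ferroportin, the iron exporter of vertebrate cells, was not well above background on either array. Its single probe gave 87.0 in the knockdown and 86.9 in the control, under the background peaks of 88.0 and 88.6. Hepcidin, the hormone that triggers the degradation of ferroportin, was not detected either (Hamp, 85.9 in the knockdown and 89.3 in the control).

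The iron regulatory proteins lay at middling levels, Aco1 above 43.5% and Ireb2 above 59.5% of the genes detected on both arrays. Their differences were small and opposite in sign. Aco1, the cytosolic aconitase that becomes IRP1 when it loses its iron-sulphur cluster, had 159.8 in the knockdown and 144.2 in the control at its single probe, a difference of 0.22. Ireb2, or IRP2, which is degraded when iron is plentiful, had 261.8 and 196.9 in the knockdown, against 290.1 and 196.7 in the control. Its probes differed by -0.29 and -0.09, with a mean of -0.19. Aco1, at 0.221, was just beyond the SD between probes of 0.215, and Ireb2 was within it. Of genes at like level, 37.2% differed as much as Aco1 and 42.4% as much as Ireb2. Neither value separates the arrays beyond what many genes of that brightness show.

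**Figure D3:**
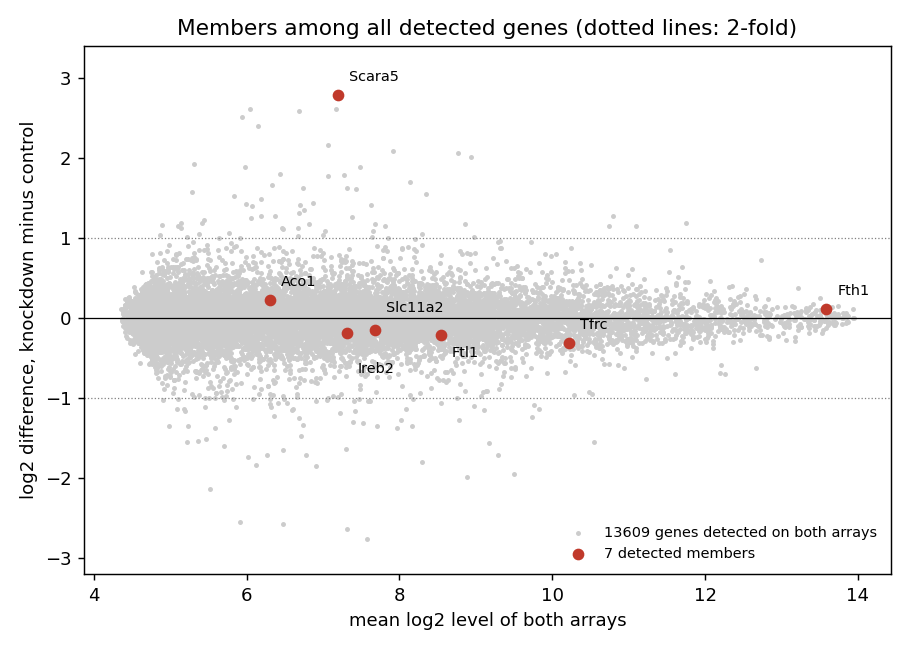
Log2 difference, knockdown minus control, against the mean log2 level for the 13609 genes detected on both arrays (grey) and the 7 detected members (red, labelled), 1 array per group. Scara5 lies above the upper dotted line of 2-fold at 2.79, and the other 6 members lie between -0.31 and 0.22, inside the grey band.

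Of the 7 detected members, 1 was at least 1.5-fold higher in the knockdown, Scara5, which was also at least 2-fold higher, and 0 were at least 1.5-fold lower. Over all detected genes 2.08% were at least 1.5-fold and 0.492% at least 2-fold higher, and 2.22% and 0.551% were lower by the same folds. As Scara5 was picked for its difference, nothing is read from its count. The median of the 7 was -0.15, or -0.17 for the 6 without Scara5, beside -0.005 for all genes. Below 0 were 4 of the 7, against 50.8% of all genes. The median of the 7 was -0.02 with bright probes only and with probes detected on both arrays only, which leave out the dim Ftl1 probe. With the brightest probe of each gene the median was 0.06.

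**Figure D4:**
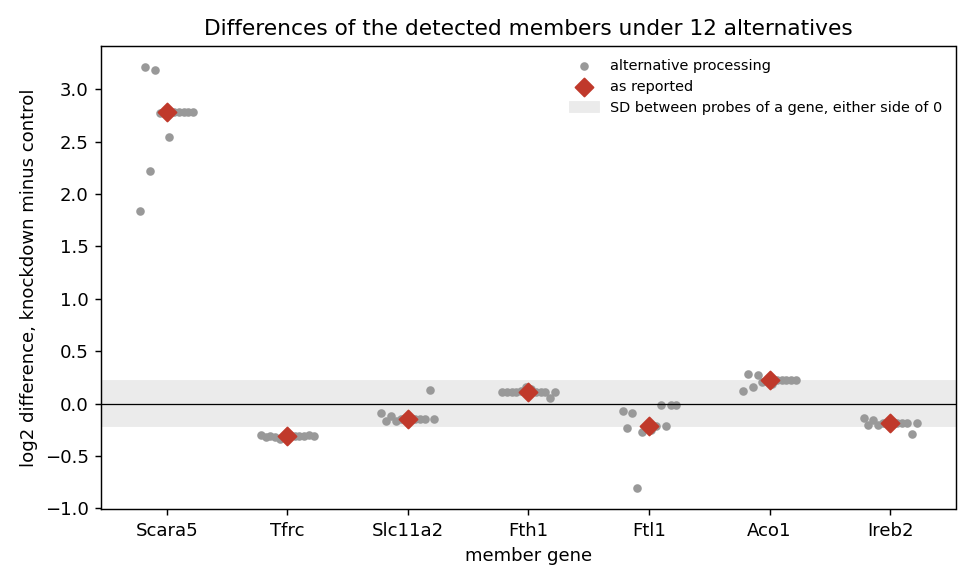
Log2 difference, knockdown minus control, of the 7 detected members as reported (diamonds) and under 12 alternative ways of processing (grey points); the grey band is the SD of 0.22 between probes of a gene on either side of 0. Scara5 stays between 1.84 and 3.21, Tfrc stays just under the band, and Ftl1 reaches -0.81 with an offset of 1.

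The wider iron pathway was read from 10 lists of iron and haem genes, which hold 104 genes besides the members. Of these, 76 were detected on both arrays and 6 on 1 array, with a median difference of 0.00. At least 1.5-fold higher were 2 of the 76, or 2.63%, and 1 was lower, or 1.32%, both near the shares over all genes. Within the SD between probes lay 65.8% of them, against 66.2% of all genes. The genes on 1 array, Cubn, Heph, Hjv, Tmprss6, Ciao2a and Hpx, were near background, with bounds of at most 1.14-fold.

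**Figure D5:**
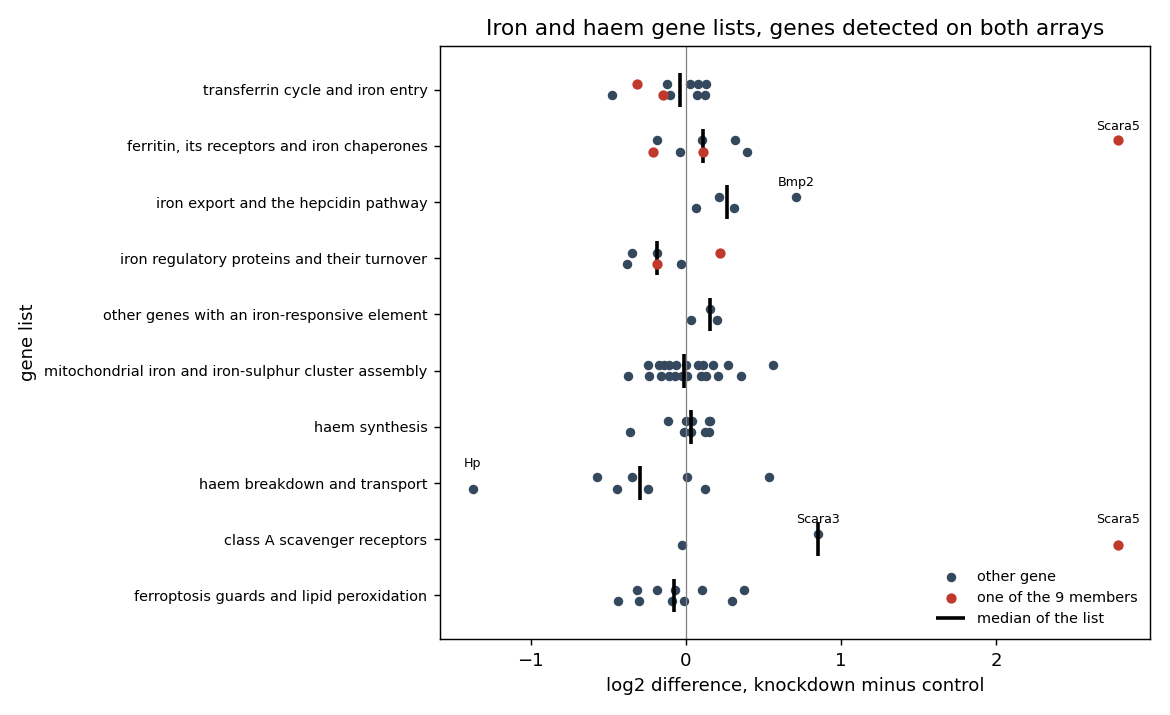
Log2 difference, knockdown minus control, of genes detected on both arrays in 10 iron and haem lists (members in red, other genes in blue, black bars for medians), 1 array per group. Scara5, Scara3, Bmp2 and Hp are the labelled genes past 1.5-fold, and most others lie between -0.5 and 0.5.

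In transferrin uptake and iron entry, 10 of 16 genes were detected on both arrays, the median was -0.04, and 0 reached 1.5-fold. Besides Tfrc and Steap1, the largest differences were those of Slc11a2 and of Slc39a14, a zinc and iron importer, at 0.13. The Slc39a14 probes were dim and of opposite sign, at -0.04 and 0.29. Transferrin itself (Trf) and the second receptor Tfr2 were not detected. Lcn2, a lipocalin that binds iron-carrying siderophores, was bright and differed by 0.07. In the ferritin list, Pcbp3 differed by 0.39 and Ncoa4, the receptor that delivers ferritin to lysosomes, by 0.32. The 3 detected Ncoa4 probes lay between 0.24 and 0.36. Ncoa4 and Slc39a14 also lie on chromosome 14, as does Slc25a37 of the mitochondrial list, which differed by -0.03. Timd2, the other ferritin receptor of the mouse, was not detected, with 88.5 in the knockdown and 90.8 in the control.

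For iron export and hepcidin control, 4 of 13 genes were detected on both arrays, and all 4 were above 0, against 48.9% of all genes, with a median of 0.26. Higher beyond the SD between probes were 2 of the 4, against 16.5% of all genes. Bmp2, a ligand of the pathway that induces hepcidin, differed by 0.71 at 1 dim probe (184.7 in the knockdown and 138.4 in the control). Cp, the ferroxidase ceruloplasmin, differed by 0.31, and its 5 probes lay between 0.20 and 0.48, or by 0.27 over the 4 detected on both arrays. Id1, a target of the same pathway, differed by 0.21 and Neo1 by 0.06. Among the regulatory proteins and the genes that turn them over, 5 of 6, Ireb2 included, were below 0, against 50.8% of all genes. Their median was -0.19, and Aco1 was above 0. Cul1 was level at -0.03, with probes of opposite sign at -0.15 and 0.09. Lower beyond the SD between probes were 2 of the 6 and higher was 1, against 17.4% and 16.5% of all genes. The ubiquitin ligase subunits Skp1 and Rbx1 differed by -0.38 and -0.35, and Fbxl5, the iron sensor that targets Ireb2, by -0.19 with probes at -0.35 and -0.03. Of 5 other transcripts with an iron-responsive element, 3 were detected, and Epas1 and Alas2 were not. The 3 lay within the SD between probes, as did 66.2% of all genes, with Cdc14a at 0.20 and Cdc42bpa at 0.03.

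Mitochondrial iron genes and iron-sulphur assembly genes had a median of -0.01 over 22 genes, with 0 past 1.5-fold. Beyond the SD between probes 3 were higher and 3 lower, against 16.5% and 17.4% of all genes. Ciao1, of the cytosolic assembly machinery, differed by 0.56 but was dim (107.4 in the knockdown and 96.2 in the control). Ciapin1 differed by -0.37 and Hscb by 0.35, the latter also near background (102.0 in the knockdown and 95.7 in the control). Isca2 was not analysed here. Haem synthesis was level too, with a median of 0.03 over 10 genes. Its largest difference was -0.36 at Cpox, which was near background. Alas1, the first enzyme of the pathway, Ppox and Fech each differed by 0.15. The Ppox probes had opposite signs, at -0.11 and 0.42.

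Haem breakdown and transport had the lowest median of the lists, -0.29 over 8 detected genes. Beyond the SD between probes, 5 of the 8 were lower and 1 was higher, against 17.4% and 16.5% of all genes. Hp, haptoglobin, which captures free haemoglobin, differed by -1.38, with its 3 probes between -1.60 and -1.17. The brightest Hp probe gave 109.8 in the knockdown and 182.2 in the control, so the knockdown values were near background. Slc48a1, a haem transporter of the endosome, differed by -0.57 (1438 in the knockdown and 2025 in the control). Blvrb, a biliverdin reductase, differed by 0.53 and both its probes agreed, at 0.48 and 0.58. Flvcr1, the haem exporter, differed by -0.44, and Hmox1, the inducible haem oxygenase, by -0.24. Macrophage markers, given because macrophages recycle haem iron, were detected on both arrays for 3 of 8, and Ptprc, Adgre1 and Cd163 were not detected. Cd68 differed by -0.39 (206.2 in the knockdown and 236.7 in the control), and Cd14 and Csf1r by -0.01 each. The summed raw intensity of all 16 probes, most at background, was 2354 in the knockdown and 2351 in the control.

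The class A scavenger receptors, the family of Scara5, were detected for 3 of 5 genes. Scara3 was 1.80-fold higher in the knockdown, with raw intensities of 4206 in the knockdown and 2255 in the control and log2 values of 11.97 and 11.12. Marco was near background and differed by -0.02, and Msr1 and Colec12 were not detected. Scara3 and Scara5 are near neighbours on chromosome 14, with 3 detected genes between them.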

How the data were processed

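The deposited non-normalised table gives raw intensity for 45281 probes, exported with GSGX 1.9.0 with no normalisation and an analysis name that marks no background step, per the file headers. Detection p-values were not among its columns. The other deposited table gives processed intensity by the authors, whose making is not given in the sources used here. Its values are linear, with a median of 3.4 on each array, and its scaling stays unknown; it served as an alternative.

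Background was taken from the peak of dim probes (88.0 in the knockdown, 88.6 in the control) and its mirrored lower side. Intensities were corrected with normexp (limma 3.58.1, R 4.3.3), an offset of 16 was added, and arrays were quantile normalised. Probes detected on at least 1 array were averaged per gene. Of 31508 probes with an Entrez number, 29586 had one in the RefSeq gene table of GRCm38.p6, used for names. Among the member probes, 4 carried a symbol only. The array's genome build is not given; GRCm38.p6 served for gene order and for the coordinates of printed sequences, not for probe positions. On simulated arrays of 15295 genes, median log2 estimates were 1.78 for 4-fold and 0.91 for 2-fold higher genes, -1.47 and -0.86 for 4-fold and 2-fold lower ones, and -0.00 for unchanged ones; 38 of 40 genes 4-fold lower were detected on both arrays.

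Members and lists were chosen with earlier results of these data known. Named were the members, list genes past 1.5-fold, up to 4 further per list, and the 3 genes nearest to Scara5; marker genes and other examples were chosen after their values were seen. A few list genes are not reported here. With 1 array per group no test was possible, and precision is limited by that number. Alternatives numbered 12.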

Additional observations from a re-analysis of the deposited data

How the results depend on the processing

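No paired analysis was possible because each group has 1 array. Scara5, Tfrc, Fth1, Aco1, Ireb2 and Ftl1 kept their sign under all 12 alternatives, of which 1, probes detected on both arrays only, was chosen after seeing the data. Scara5 and Aco1 have 1 probe each. Alternatives that change only which probes are kept or averaged could not alter them, and left them at 2.79 and 0.22. Slc11a2 changed sign with the brightest probe of the gene, to 0.13. Of 229 recomputed medians and differences 8 moved beyond the SD between probes, and 0 of those past 1.5-fold reversed. Scara5 was 1.84 with no background correction, 2.22 with an offset of 50, 2.54 from the authors' processed table, 3.18 with an offset of 1 and 3.21 with a floor.

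Counts over all genes depended on how dim probes were handled. Higher by 1.5-fold were 99 genes with no background correction, 138 with an offset of 50, 783 with a floor and 825 with an offset of 1, and lower were 95, 149, 869 and 878, against 283 higher and 302 lower as reported. Higher by 2-fold were 23, 33, 191 and 187, and lower were 20, 34, 240 and 229, against 67 and 75. The authors' table gave 49 genes lower by 2-fold. Members at least 1.5-fold lower numbered 1 with an offset of 1, through the dim Ftl1 probe, against 0. The scavenger receptor median was 1.82 with bright probes only, as Marco dropped out.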

Other observations

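Genes of ferroptosis, the iron-dependent death by lipid peroxidation, were counted above among the 10 lists but not described. The list holds guards against this death together with genes of lipid peroxidation, so its median mixes different roles. Of its 11 genes 10 were detected on both arrays, with a median difference of -0.08, and 0 reached 1.5-fold. Gpx4, the peroxidase that reduces lipid peroxides, differed by -0.07, with its 3 probes between -0.09 and -0.05. Acsl4, which loads membranes with oxidisable fatty acids, differed by -0.44, and its 3 detected probes lay between -0.49 and -0.36. Slc7a11, the cystine importer, differed by 0.38 over 3 probes between 0.14 and 0.57, or by 0.50 over those detected on both arrays, and Gclm, a subunit of the enzyme that starts glutathione synthesis, by -0.31.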
